A study of Mus musculus with 12 samples.

Results

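Integrins are cell-surface receptors made of an α and a β subunit, and laminins are trimers of an α, a β and a γ chain that build the basement membrane together with the nidogens, which link laminin to collagen IV. The subunits set what a cell can hold on to: α3, α6 and α7 paired with β1 bind laminin, α1 paired with β1 binds collagen, and α5, α8 and αv bind proteins that carry the RGD motif, such as fibronectin and vitronectin. In the developing brain, laminin and its receptors are known for anchoring neural stem cells in their niche, and αv with β8 is known on glial cells as an activator of latent TGF-β. The 32 genes described here, 20 integrin subunits, 10 laminin chains and 2 nidogens, were chosen by gene family and not by their values. Of these, 31 had a probe set (a group of array probes for a transcript) with a single gene symbol among 18193 such genes, and Itga11 was not analysed here. Each gene is given by the probe set with its highest mean over the 12 arrays.

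The arrays hold total RNA from 6 groups of cultured mouse cells, with 2 arrays in each group. All were p53-/- cells of the BL6 strain that go back to the brain of embryonic day 14.5 animals, so the controls lack p53 too. The parents were neural stem cells (NSC), grown without serum as spheres, oligodendrocyte precursors (OPC), induced from NSC in 0.25% serum with PDGFAA and bFGF, then isolated by immunopanning, and astrocytes (AST), induced from NSC with 10% serum for 3 weeks. The lines NSCL61, OPCL61 and ASTL61 were made from these parents by electroporation of plasmids carrying HRasL61 with EGFP and neomycin resistance, selection in 0.5 mg/ml neomycin and sorting for GFP. Those steps are not given for the parents, so in each line the effect of HRasL61 and that of its handling cannot be told apart. The labels do not say whether a line is 1 clone, nor whether the 2 arrays of a group came from separate cultures, so the p-values measure only the spread between these arrays, which may be technical.

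Values are log2 signals, so a difference of 1 is a 2-fold difference, and array medians lay between 5.16 and 5.21. A level under 5.18, the median of all values, may be background. The number of arrays limits the precision: between the 2 arrays of a group, the SD of the difference over all genes tested ran from 0.193 in NSCL61 to 0.416 in NSC. Over the integrin, laminin and nidogen genes tested it ran from 0.268 in NSCL61 to 0.517 in AST. The labels were checked against marker genes. All 8 oligodendrocyte precursor markers had group means above 5.18 in OPC, though those of Sox10 ran only from 6.15 to 6.44 over the 6 groups. The other labels fared less well. Of 8 stem cell markers, 4 did so in NSC, and Sox2, a defining gene of neural stem cells, had 4.41 and 6.79 in the NSC arrays against 10.07 to 11.99 in the 10 others. Of 8 astrocyte markers, 5 did so in AST, where Aqp4 did not and Gfap had 5.41 and 5.73, below the 7.73 and 6.07 of OPC. In OPC, 6 stem cell markers and 6 astrocyte markers had group means above 5.18 too. In NSC, 4 oligodendrocyte precursor markers did. The names NSC and AST therefore stand for the labels, and a comparison with NSC rests on those same 2 arrays throughout. All 10 pericyte and fibroblast markers had group means above 5.18 in NSC, though Rgs5 had 7.57 and 4.85 in the NSC arrays. The mean level of those 10 genes was 9.97 to 10.59 in the NSC arrays, 7.74 to 8.25 in AST, 8.62 to 9.07 in ASTL61, 4.63 to 4.74 in OPC, 5.22 to 5.26 in NSCL61 and 4.84 to 5.19 in OPCL61. That level was lower in NSCL61 than in NSC, as were several of the genes below, and its part in those results was not tested.

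Of the 31 genes, 24 had a group mean above 5.18 and were tested together with 12835 genes in all. The other 7 stayed under it in every group, so their levels may be background throughout. They were Itga2 and Itga10, α subunits for collagen, Itgb2, the β subunit of leukocytes, Itgb6, known from epithelia, Lama1, the laminin α chain of early embryos, and Lama3 and Lamb3, chains of the epithelial laminin. Group means ran from 2.91 to 3.16 for Itgb6, from 4.11 to 4.24 for Lamb3, from 4.16 to 4.50 for Lama3, from 3.87 to 4.20 for Itga10 and from 3.32 to 4.16 for Lama1. Just outside the limit lay Itga2, whose highest group mean was 5.17 in NSCL61, and just inside it lay Lamc3 at 5.55 in NSCL61 and Itgb4 at 5.65 in OPCL61. Lamc3, a laminin γ chain, was tested only because of its NSCL61 level: its arrays had 5.65 and 5.45 there and 4.52 to 5.19 in the 5 other groups, whose means all lay under 5.18. Its calls are therefore not described as changes. It stands in the counts over 24 genes below, and without it the calls were 14 of 23 for NSCL61 against NSC, 16 for OPCL61 against OPC, 17 for OPC against NSC, 14 for AST against NSC, 7 for OPCL61 against NSCL61, 10 for ASTL61 against NSCL61 and 13 for OPCL61 against ASTL61. Itgb2 had 4.11 in ASTL61 array 1 and 5.27 in ASTL61 array 2. Of 11 leukocyte and microglia markers, 3 had group means above 5.18 in ASTL61 and 3 in AST, and the list's mean level was 4.39 and 4.60 at its lowest and highest array in ASTL61. Among them Cd68, a lysosomal protein of macrophages, had 4.99 in ASTL61 array 1 and 6.32 in array 2, against 4.60 and 4.74 in AST. Cd68 was higher still in NSCL61 (7.31 and 6.62) and in OPCL61 (7.86 and 7.26). In those lines Itgb2 had group means of 3.64 and 4.24. Ptprc, which encodes the leukocyte antigen CD45, had group means of 2.79 to 3.09. The part of these genes in the value of Itgb2 was not tested.

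**Figure D1:**
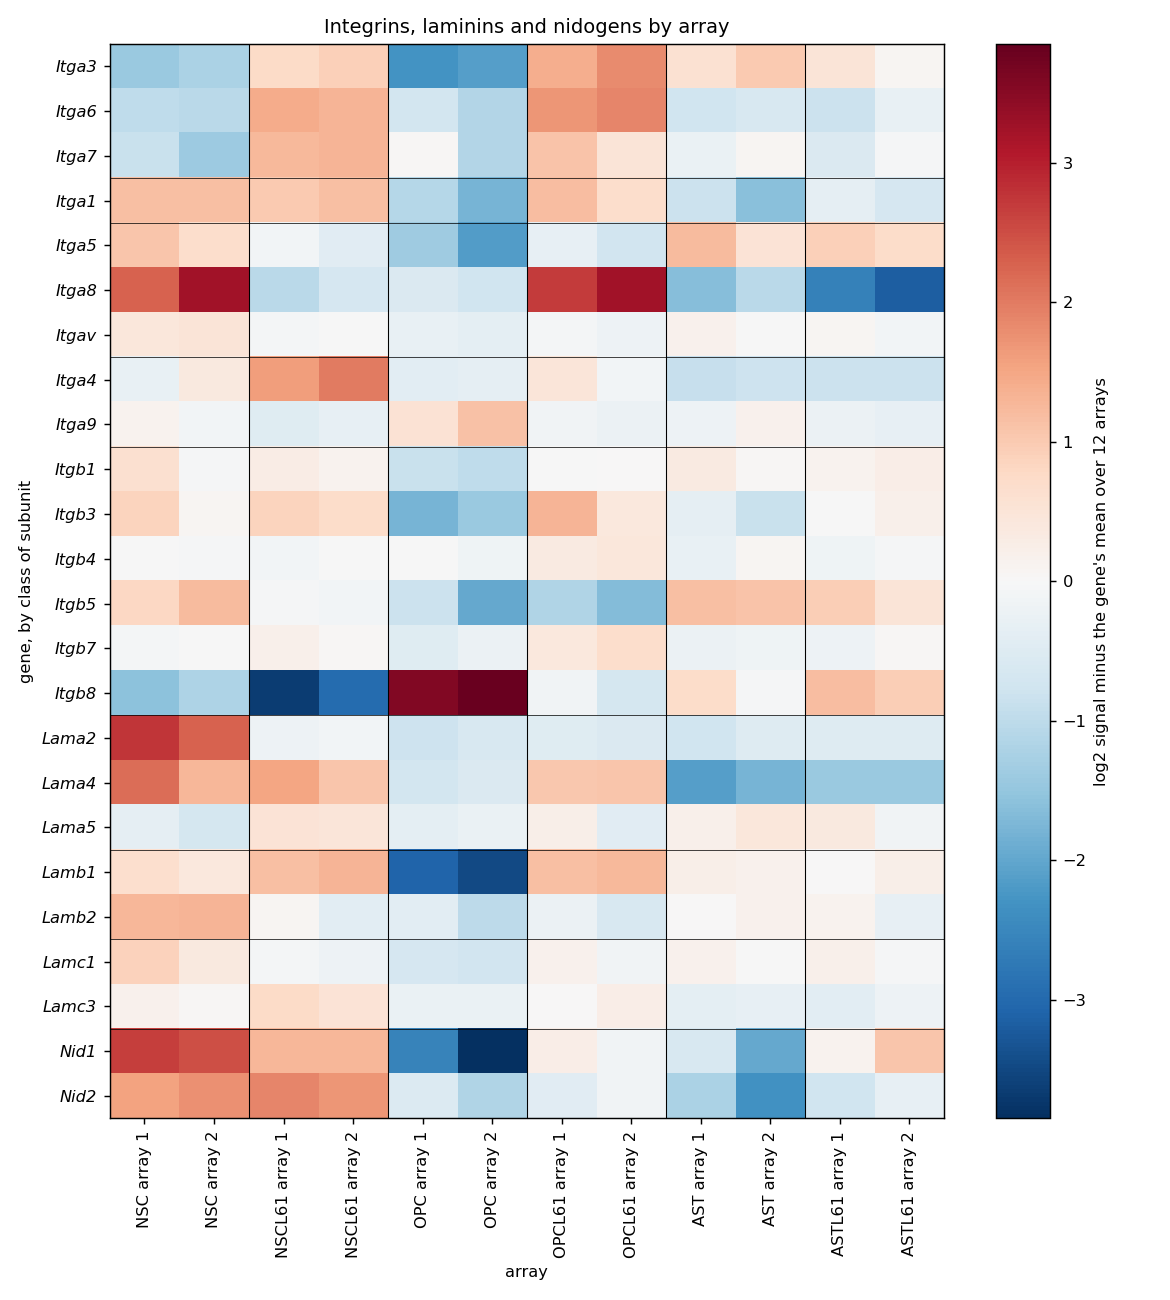
Each cell is the log2 signal of a gene in an array minus that gene's mean over the 12 arrays, for the 24 genes tested, ordered by class of subunit; vertical lines part the 6 groups of 2 arrays and horizontal lines the classes. Itgb8 stands out as high in both OPC arrays, Lamb1 as low in both OPC arrays, and Itga8 as high in both NSC and both OPCL61 arrays.

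The 4 genes that differed most between OPCL61 and OPC were Lamb1, Itgb8, Itga3 and Itga8, and the 250 bases before their annotated starts are shown because the largest changes of the family fall on them. The sequences are RefSeq's for mouse GRCm38.p6, written 5′ to 3′ on the strand of the gene, for chr12:31265043-31265292 (+, Lamb1), chr12:119238277-119238526 (-, Itgb8), chr11:95076715-95076964 (-, Itga3) and chr2:12301945-12302194 (-, Itga8). The table gives Itga3 another start as well. Capitals mark matches on either strand to any of 5 motifs searched: the AP-1 motif TGANTCA, the TEAD motif GGAATG, the ETS motif CCGGAAG, the GC box GGGCGG and the TATA motif TATAAA.
Lamb1: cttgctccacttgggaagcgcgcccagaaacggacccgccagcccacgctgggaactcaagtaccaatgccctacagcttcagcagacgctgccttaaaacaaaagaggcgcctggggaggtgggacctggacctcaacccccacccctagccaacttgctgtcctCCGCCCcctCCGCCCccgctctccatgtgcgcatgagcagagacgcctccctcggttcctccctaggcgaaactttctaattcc
Itgb8: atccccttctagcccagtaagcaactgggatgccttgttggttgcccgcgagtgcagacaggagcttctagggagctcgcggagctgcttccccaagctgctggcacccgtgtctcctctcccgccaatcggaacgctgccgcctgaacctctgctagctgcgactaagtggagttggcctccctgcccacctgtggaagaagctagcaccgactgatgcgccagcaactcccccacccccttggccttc
Itga3: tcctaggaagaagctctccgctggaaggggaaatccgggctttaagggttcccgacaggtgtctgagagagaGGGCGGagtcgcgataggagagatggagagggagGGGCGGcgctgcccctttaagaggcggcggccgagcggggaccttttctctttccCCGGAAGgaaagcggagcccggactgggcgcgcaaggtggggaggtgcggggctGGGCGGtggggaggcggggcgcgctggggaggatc
Itga8: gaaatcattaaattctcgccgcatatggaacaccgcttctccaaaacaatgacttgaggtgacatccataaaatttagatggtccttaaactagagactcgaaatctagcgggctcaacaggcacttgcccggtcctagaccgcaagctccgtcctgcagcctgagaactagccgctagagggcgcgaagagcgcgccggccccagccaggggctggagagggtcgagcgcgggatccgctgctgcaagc
Lamb1 held 2 GC boxes, and Itga3 held 3 GC boxes and 1 ETS motif. Itgb8 and Itga8 held none of the 5 in this window. Starts of 21 of the 32 genes were in the table, 24 starts in all. Among those 24, 0 held the AP-1 motif, against 6.75% of all 32851 starts, 4 held the TEAD motif (12.6% of all), 1 the ETS motif (6.91%), 9 the GC box (32.7%) and 0 the TATA motif (12.4%). A match is only a match of letters, and a window without one says nothing of the factor.

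The parents are described first, since every change in a line starts from them. OPC stood apart from NSC by lower levels of laminin chains, nidogens and most integrin subunits that were called, and by more Itgb8. OPC had the lowest group mean of the 6 for 12 of the 24 genes, or 50% against 31.3% of all genes tested, and the highest for 2, Itgb8 and Itga9, or 8.33% against 27.2% of all genes. NSC had the highest for 8, or 33.3% against 15.7% of all genes. ASTL61 had the highest for 0, against 8.72% of all genes.

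Between OPC and NSC, 18 of the 24 were called, with 2 higher and 16 lower in OPC, where 51.5% of all genes passed (27.2% higher and 24.3% lower). The test throughout is limma's, with Benjamini-Hochberg adjustment over the 12835 genes and a threshold of 0.05. Of the 9 laminin and nidogen genes, 8 were lower in OPC, Lamc3 among them, and 0 higher, and their median difference was -2.36, where the median of all genes was -0.01. In bulk RNA, fewer cells of a type and less RNA per cell cannot be told apart. Lamb1, the β1 chain found in most laminins, had 11.64 and 11.39 in NSC and 7.91 and 7.54 in OPC, a difference of -3.79 ± 0.15 (log2, ± SE; adjusted p = 7.12e-08). Nid1 had 10.78 and 10.61 in NSC and 5.57 and 4.28 in OPC, so that 1 OPC array may be at background, and the difference was -5.77 ± 0.50 (adjusted p = 1.09e-05). Neither gene's arrays overlapped between the groups.

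Other chains followed at smaller sizes. Lama2, the α2 chain of muscle and vessel basement membranes, differed by -3.22 ± 0.17 between OPC and NSC, Nid2 by -2.49 ± 0.34, Lama4 by -2.36 ± 0.26, Lamb2 by -2.00 ± 0.25 and Lamc1, the most widely used γ chain, by -1.32 ± 0.18. Lama5 did not pass at 0.20 ± 0.24 (adjusted p = 0.507).

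Among receptors, Itgb1, the β subunit shared by most α subunits, had 11.91 and 11.25 in NSC, 10.44 and 10.30 in OPC, and 11.65 and 11.35 in AST. Both OPC arrays lay below all NSC and AST arrays, by -1.21 ± 0.20 against NSC (adjusted p = 7.70e-04) and -1.12 ± 0.20 against AST (adjusted p = 0.00118). Another Itgb1 probe set, with OPC values of 7.07 and 7.35 against 8.12 and 7.63 in NSC, differed in the same direction. Itgb8, the partner of αv, had 11.31 and 11.54 in OPC, 6.16 and 6.55 in NSC, and 8.43 and 7.68 in AST. The 3 parents did not overlap, and OPC exceeded NSC by 5.07 ± 0.31 (adjusted p = 1.00e-06) and AST by 3.37 ± 0.31 (adjusted p = 1.66e-05). The group means of its partner Itgav spanned 0.80 over the 6 groups. Itgb5, another partner of αv, ran the opposite way to Itgb8: 8.73 and 7.57 in OPC against 10.35 and 10.76 in NSC and 10.70 and 10.64 in AST, differences of -2.40 ± 0.34 and -2.52 ± 0.34.

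AST and NSC differed in 15 of the 24 genes, 3 higher and 12 lower in AST, where 30.4% of all genes passed (15.4% higher and 15% lower). Without AST array 2 the count was 9, and without any other array of the 2 groups it was 10 or 11. Of the laminin and nidogen genes, 7 of 9 were lower in AST, Lamc3 among them. Lama4, the α4 chain of vessels, had 9.20 and 8.35 in NSC and 4.93 and 5.26 in AST, a difference of -3.68 ± 0.26 (adjusted p = 1.95e-05), and the lower AST array may be background. Lama2 differed by -3.15 ± 0.17, Nid1 by -3.86 ± 0.50 and Nid2 by -3.42 ± 0.34. Nid2 had 5.18 and 4.04 in AST, which may be background, so its size may not be exact. Lamb1 did not pass, at -0.31 ± 0.15 (adjusted p = 0.158). Itga3, an α subunit for laminin, was the largest of the 3 that were higher in AST: 8.49 and 8.91 against 6.47 and 6.69 in NSC, by 2.11 ± 0.21 (adjusted p = 1.55e-04).

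OPC and AST differed in 14 of the 24 genes, 4 higher and 10 lower in OPC, against 51.7% of all genes (26.1% higher and 25.6% lower), so the share called here, 58.3%, lay near the background. Lamb1 was lower in OPC by -3.48 ± 0.15, Itga3 by -3.00 ± 0.21 and Itga5, the fibronectin receptor subunit, by -2.64 ± 0.30. These 3 comparisons share their parents, so they are not independent of each other.

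Against these parents, the 3 laminin-binding α subunits Itga3, Itga6 and Itga7 were called higher in NSCL61 and in OPCL61, the Itga7 call in OPCL61 resting on single arrays, and 0 of the 3 passed in ASTL61 by limma. Of all genes tested, 9.49% were called higher in both lines. The β subunits that pair with them, Itgb1 and Itgb4, did not pass in NSCL61, at -0.07 ± 0.20 and -0.03 ± 0.14. Itga6 had 8.86 and 8.81 in NSC and 11.27 and 11.17 in NSCL61, 9.14 and 8.72 in OPC and 11.55 and 11.73 in OPCL61, and 9.08 and 9.24 in AST and 9.03 and 9.55 in ASTL61. The 4 arrays of NSCL61 and OPCL61 lay above the 8 others. It rose by 2.39 ± 0.19 in NSCL61 (adjusted p = 1.45e-05) and by 2.71 ± 0.19 in OPCL61 (adjusted p = 4.62e-06), and its change in ASTL61 was 0.13 ± 0.19 (adjusted p = 0.915).

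The difference between changes was tested as well. For Itga6 the change in ASTL61 was smaller than that in NSCL61 by -2.26 ± 0.27 (adjusted p = 3.38e-04) and smaller than that in OPCL61, which exceeded it by 2.58 ± 0.27 (adjusted p = 1.26e-04). The changes in OPCL61 and NSCL61 differed by 0.32 ± 0.27 (95% interval -0.28 to 0.93, adjusted p = 0.379). A second Itga6 probe set gave 2.66, 2.95 and 0.16 for the same 3 comparisons.

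Itga3 had 6.47 and 6.69 in NSC and 8.64 and 8.82 in NSCL61, 5.60 and 5.79 in OPC and 9.29 and 9.73 in OPCL61, and 8.49 and 8.91 in AST and 8.39 and 7.97 in ASTL61. NSCL61 and OPCL61 thus came to or above the level at which AST already stood. The rise was 2.15 ± 0.21 in NSCL61 (adjusted p = 5.40e-05) and 3.81 ± 0.21 in OPCL61 (adjusted p = 1.03e-06), the latter larger by 1.66 ± 0.30 (adjusted p = 0.00206). In ASTL61 the change was -0.52 ± 0.21 (adjusted p = 0.648). Another pair of Itga3 probe sets gave smaller rises of 1.13 and 1.39 in NSCL61, and of 2.33 and 2.72 in OPCL61.

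Itga7, the α subunit for laminin known from muscle, had 5.96 and 5.43 in NSC and 8.08 and 8.15 in NSCL61, and rose by 2.42 ± 0.37 (adjusted p = 9.02e-04). In OPC it had 6.87 and 5.70, and in OPCL61 7.93 and 7.32, a difference of 1.34 ± 0.37 (adjusted p = 0.0147). The OPC arrays lay far apart for this gene, and the call in OPCL61 was lost without OPC array 2 (0.75, adjusted p = 0.113) and without OPCL61 array 1 (1.04, adjusted p = 0.0912), and in a model of only these 4 arrays (adjusted p = 0.0608). Itgb4, which pairs only with α6, stayed near 5.18 in every group. It rose in OPCL61 by 0.48 ± 0.14 (adjusted p = 0.0164), from 5.24 and 5.11 to 5.61 and 5.69, a call lost without OPC array 2 (adjusted p = 0.096) or OPCL61 array 2 (adjusted p = 0.0732).

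**Figure D2:**
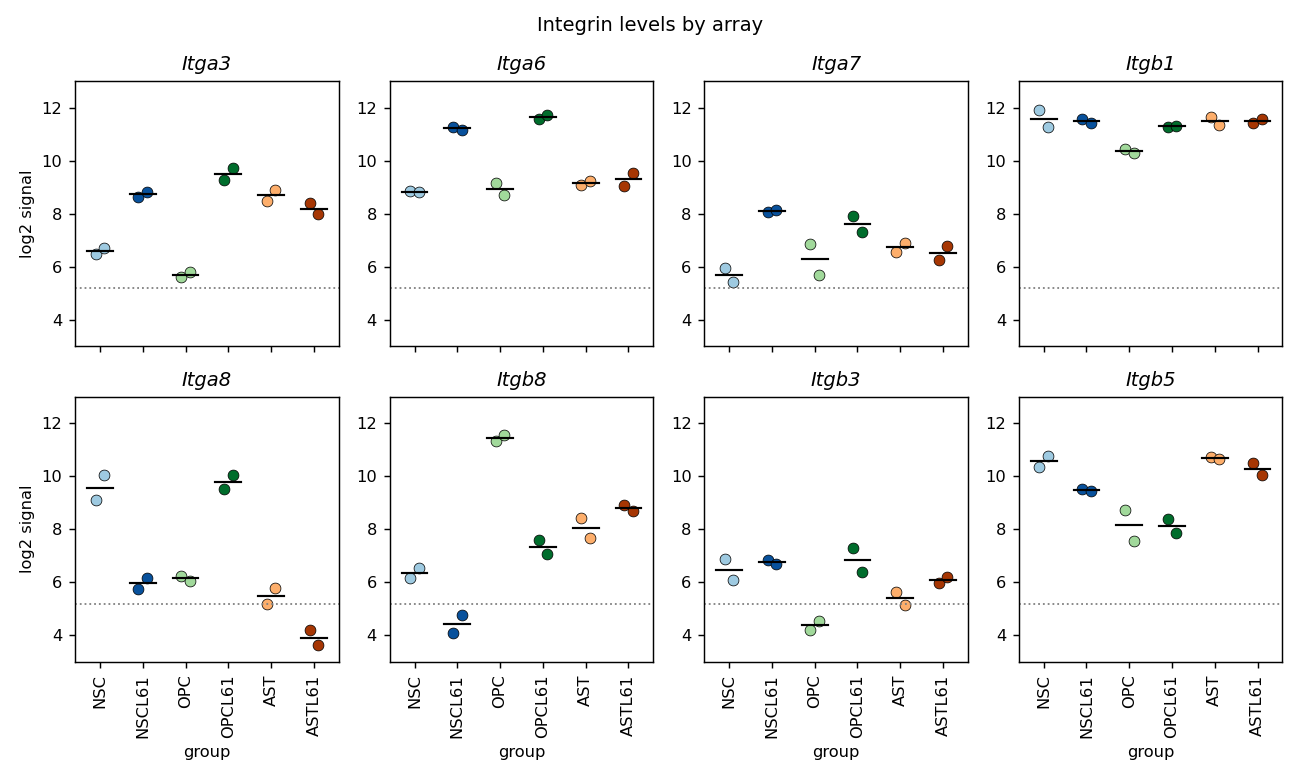
Log2 signal (vertical axis) of 8 integrin genes in each group (horizontal axis); each point is an array, each bar the mean of the 2 arrays, and the dotted line the median of all values, 5.18. Itga6 is above 11 in the 4 arrays of NSCL61 and OPCL61 and under 10 in the others, and Itga8 is high in NSC and OPCL61.

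NSCL61 differed from NSC in 15 of 24 genes, 7 higher and 8 lower, where 37.8% of all genes passed (20.7% higher and 17.1% lower). The median over the 24 was -0.07 and that of all genes 0.04. Beside the 3 laminin receptors, Itga4, the α subunit for fibronectin and VCAM-1, rose by 1.75 ± 0.24 (adjusted p = 4.66e-04), from 5.85 and 6.50 to 7.72 and 8.13. Both NSCL61 arrays were the highest of the 12 for Itga4. Itga8 fell by 3.60 ± 0.35 (adjusted p = 4.90e-05), from 9.09 and 10.03 to 5.76 and 6.16. Itgb8 fell by 1.93 ± 0.31 (adjusted p = 0.00104), from 6.16 and 6.55 to 4.08 and 4.76, both of which may be background, so the size may be a lower bound.

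Itga5 and Itgb5 were lower in NSCL61 by smaller amounts, and both calls rested on single arrays. Itga5 fell from 8.42 and 8.03 to 7.26 and 6.93 (-1.13 ± 0.30, adjusted p = 0.0159), a call lost without NSC array 1 (-0.94, adjusted p = 0.0891) or NSCL61 array 2 (-0.97, adjusted p = 0.103). Itgb5 fell from 10.35 and 10.76 to 9.51 and 9.45 (-1.08 ± 0.34, adjusted p = 0.033), a call lost without NSC array 2 (-0.88, adjusted p = 0.162) or either NSCL61 array (adjusted p = 0.111 and 0.126). The other Itgb5 probe sets gave -1.24, -1.17 and -1.27. Itgav was called at -0.51 ± 0.12 (adjusted p = 0.00731), but other probe sets gave -0.0031 (adjusted p = 0.989) and 0.033 (adjusted p = 0.877). Without NSCL61 array 1 its adjusted p was 0.052. Itgb1, the common β subunit, was at -0.07 ± 0.20 (95% interval -0.52 to 0.38, adjusted p = 0.812), and its NSC and NSCL61 arrays overlapped.

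Of the 9 laminin and nidogen genes in NSCL61, 3 were called higher, Lamc3 among them, 3 fell and 3 did not pass. That is 66.7% called with Lamc3 counted, against 37.8% of all genes (20.7% higher and 17.1% lower). Lama2 fell by 2.68 ± 0.17 (adjusted p = 3.60e-06), from 9.09 and 8.59 in NSC to 6.11 and 6.21. Both NSC arrays stood far above the 10 others, which lay between 5.53 and 6.21. Lamb2 fell by 1.45 ± 0.25 (adjusted p = 0.00164), from 7.81 and 7.86 to 6.62 and 6.15. Lamc1 fell by 0.76 ± 0.18 (adjusted p = 0.00947), a call lost without NSC array 1 (-0.51, adjusted p = 0.0611) or NSCL61 array 2 (-0.70, adjusted p = 0.0631), and its second probe set gave -1.04.

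Lamb1 rose by 0.71 ± 0.15 in NSCL61 (adjusted p = 0.00533), from 11.64 and 11.39 to 12.16 and 12.29, and other probe sets gave 0.89 and 0.92. Lama5, the α5 chain, rose by 1.00 ± 0.24 (adjusted p = 0.00882), from 6.57 and 6.25 to 7.43 and 7.39, a call lost without NSC array 2 (0.84, adjusted p = 0.0595) or NSCL61 array 1 (0.97, adjusted p = 0.0532) and with its second probe set (0.59, adjusted p = 0.0657). Nid1 did not pass at -1.29 ± 0.50 (adjusted p = 0.0712), though its arrays did not overlap (10.78 and 10.61 against 9.41 and 9.40). Its second probe set passed at -1.63 (adjusted p = 0.0171), as did Nid1 in a model of only these 4 arrays (adjusted p = 0.0017).

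OPCL61 differed from OPC in 17 of 24 genes, 15 higher, Lamc3 among them, and 2 lower, where 48.5% of all genes passed (24.5% higher and 23.9% lower). The median over the 24 was 0.80 and that of all genes 0.05. Lamb1 changed most: 7.91 and 7.54 in OPC and 12.15 and 12.25 in OPCL61, a rise of 4.48 ± 0.15 (adjusted p = 7.52e-08). Other Lamb1 probe sets gave 4.60 and 4.86. The OPCL61 level was within 0.03 ± 0.15 of that in NSCL61 (OPCL61 minus NSCL61 -0.03, 95% interval -0.37 to 0.32, adjusted p = 0.925), where OPC had lain below NSC by -3.79.

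The other laminin partners rose less. Lama4 had 6.34 and 6.50 in OPC and 8.09 and 8.13 in OPCL61, a rise of 1.69 ± 0.26 (adjusted p = 5.39e-04), and Nid1 went from 5.57 and 4.28 to 8.37 and 8.00, a rise of 3.26 ± 0.50 (adjusted p = 5.68e-04). Lamc1 rose by 0.71 ± 0.18 (adjusted p = 0.00946), a call lost without OPC array 2 (0.67, adjusted p = 0.0546) or OPCL61 array 1 (0.56, adjusted p = 0.0613) and with the second probe set (0.36, adjusted p = 0.178). Lamc3, at 4.68 and 4.67 in OPC and 4.93 and 5.19 in OPCL61, may be background in both groups. Lama2, Lama5, Lamb2 and Nid2 did not pass, with changes of 0.19, 0.21, 0.30 and 0.56.

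**Figure D3:**
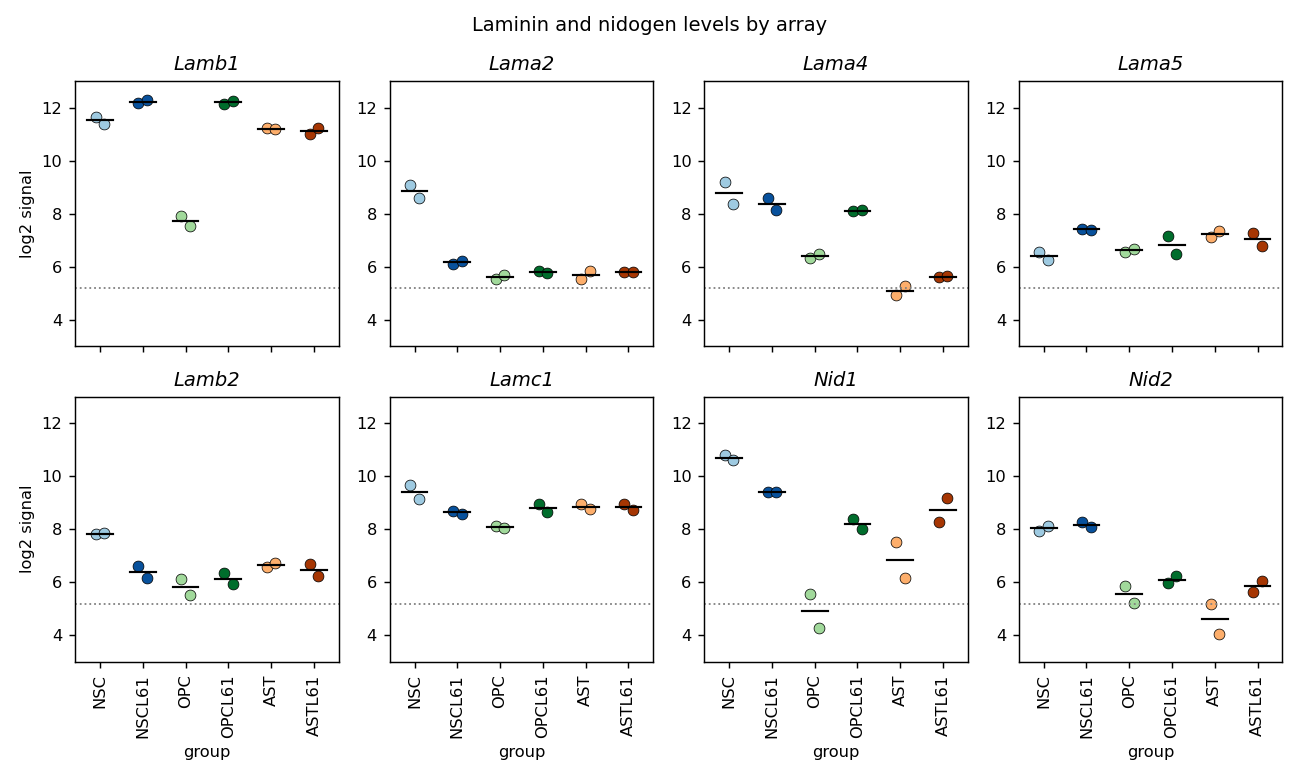
Log2 signal (vertical axis) of 8 laminin and nidogen genes in each group (horizontal axis); each point is an array, each bar the mean of the 2 arrays, and the dotted line the median of all values, 5.18. Lamb1 is low only in OPC, at 7.91 and 7.54, and Lama2 is high only in NSC, at 9.09 and 8.59.

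Of 15 integrin subunits in OPCL61, 10 were higher, 2 lower, and 3 did not pass. That is 80% called, against 48.5% of all genes (24.5% higher and 23.9% lower). The calls of Itga5, Itga7 and Itgb4 rested on single arrays. Itga8 had 6.25 and 6.05 in OPC and 9.50 and 10.05 in OPCL61, a rise of 3.62 ± 0.35 (adjusted p = 3.24e-05), and its second probe set gave 3.56. Itga1, the collagen receptor subunit, rose by 2.37 ± 0.29 (adjusted p = 1.58e-04), from 5.82 and 5.13 to 8.11 and 7.59. Itgb3, which pairs with αv, rose by 2.47 ± 0.33 (adjusted p = 2.48e-04) from 4.20 and 4.55, levels that may be background, to 7.29 and 6.39, and its second probe set gave 1.23.

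Itga5 rose by 1.24 ± 0.30 (adjusted p = 0.00762), from 5.98 and 5.20 to 7.04 and 6.63, a call lost without OPC array 2 (0.85, adjusted p = 0.068). Itgb1 rose by 0.91 ± 0.20 (adjusted p = 0.00435), from 10.44 and 10.30 to 11.26 and 11.31. Other Itgb1 probe sets gave 0.73 and 0.30 (adjusted p = 0.201). Itgb7, the β subunit that pairs with α4, rose by 0.88 ± 0.14 (adjusted p = 8.32e-04), from 5.89 and 6.13 to 6.76 and 7.03. Itgav did not pass with the probe set used, at 0.21 ± 0.12 (adjusted p = 0.168), while its others passed at 0.76 and 0.56 (adjusted p = 0.00137 and 0.00655).

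Only Itgb8 and Itga9 were lower in OPCL61 among the 24 tested. Itgb8 went from 11.31 and 11.54 to 7.58 and 7.05, a fall of 4.11 ± 0.31 on the log2 scale (adjusted p = 6.39e-06), and ended above both NSCL61 arrays. Itga9, the α subunit for tenascin and osteopontin, fell by 1.01 ± 0.20 (adjusted p = 0.00215), from 6.34 and 6.91 to 5.67 and 5.56. Itgb5 was at -0.02 ± 0.34 (95% interval -0.79 to 0.75, adjusted p = 0.965).

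**Figure D4:**
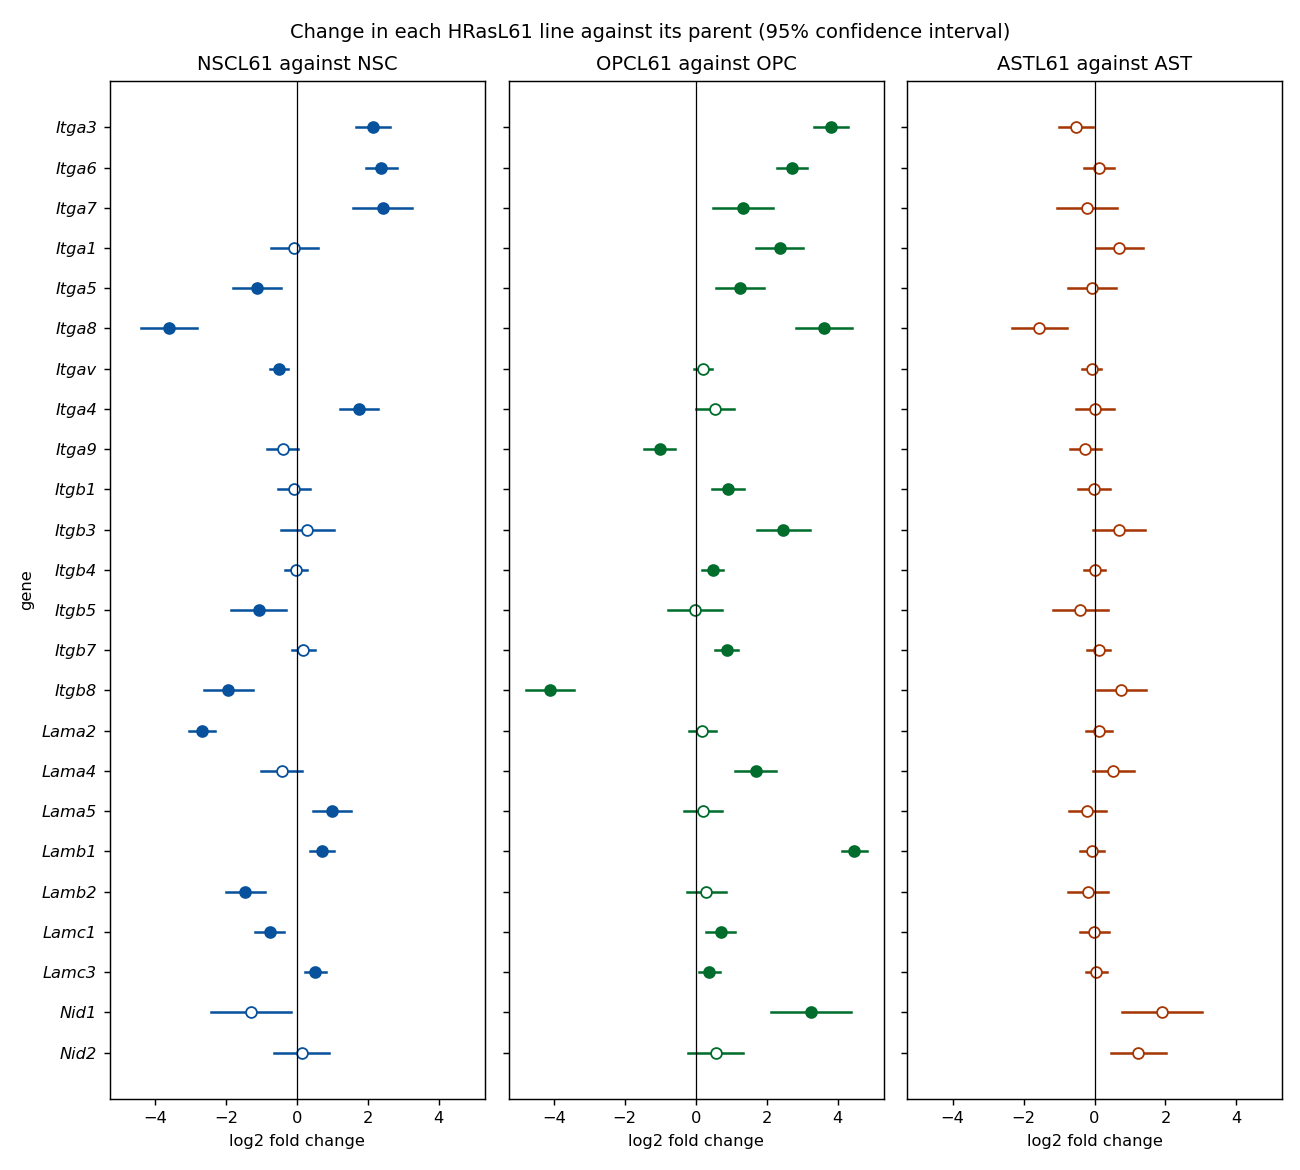
Log2 fold change (horizontal axis) of each of the 24 genes tested in each HRasL61 line against its parent, with the 95% confidence interval; filled points passed an adjusted p of 0.05 and open points did not. Itga3, Itga6 and Itga7 lie to the right in NSCL61 and OPCL61, Itga8 lies at -3.60 in NSCL61 and at 3.62 in OPCL61, and 0 points are filled in ASTL61. Lamc3 is filled in NSCL61 and OPCL61 but was tested only because of its NSCL61 level.

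The comparisons of NSCL61 and OPCL61 with their parents share no array, so their calls can be set side by side. Without Lamc3, 4 of 23 genes rose in both lines (Itga3, Itga6, Itga7 and Lamb1), or 17.4% against 9.49% of all genes tested. Of the 24, Itgb8 alone fell in both (4.17% against 6.37% of all genes). Another 3, Itga8, Itga5 and Lamc1, moved in opposite directions (12.5% against 5.81% of all genes). All 3 were lower in NSCL61 and higher in OPCL61, as were 2.98% of all genes. The Itga5 and Lamc1 calls rested on single arrays in both lines. Nid2 alone passed in neither, or 4.17% against 35.4% of all genes. A direct test of the difference between the changes in OPCL61 and NSCL61 passed for 16 of 24 genes, 14 of them with the change in OPCL61 the more positive, where 37.9% of all genes passed (18% more positive and 19.9% more negative in OPCL61).

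Itga8 gave the largest such difference, 7.23 ± 0.49 (adjusted p = 6.32e-06). It ended where the other parent had begun: NSCL61 with 5.76 and 6.16 lay near OPC with 6.25 and 6.05, and OPCL61 with 9.50 and 10.05 near NSC with 9.09 and 10.03. Nid1 differed by 4.55 ± 0.71 (adjusted p = 9.15e-04), Lamb1 by 3.76 ± 0.22 (adjusted p = 2.44e-06), Lama2 by 2.87 ± 0.24 (adjusted p = 1.94e-05) and Itgb3 by 2.17 ± 0.47 (adjusted p = 0.00554). Nid2, at 0.42 ± 0.48, did not pass.

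ASTL61 against AST gave 0 of 24 genes past the threshold with limma, where 3 of 12835 genes, or 0.0234%, passed. At an unadjusted p under 0.05 there were 6, or 25% against 7.33% of all genes. They were Itga8 (-1.56 ± 0.35), Itga3 (-0.52 ± 0.21), Itga1 (0.70 ± 0.29), Itgb8 (0.75 ± 0.31), Nid1 (1.89 ± 0.50) and Nid2 (1.23 ± 0.34). Nid1 had 7.50 and 6.16 in AST and 8.26 and 9.19 in ASTL61. Nid2 had 5.18 and 4.04 in AST, which may be background, and 5.63 and 6.06 in ASTL61. Itga8 had 5.17 and 5.78 in AST and 4.21 and 3.63 in ASTL61, so both groups lie near or under background, and its second probe set gave -0.17. For several genes the interval is narrow: Itgb1 was at -0.01 (95% interval -0.46 to 0.44) and Lamb1 at -0.08 (95% interval -0.42 to 0.26).

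Changes in ASTL61 also differed from those of the other lines by direct test. Against NSCL61, 11 of 24 genes passed, 5 more positive and 6 more negative in ASTL61, where 25.3% of all genes passed. Lama2 differed by 2.81 ± 0.24 (adjusted p = 4.79e-05) and Itga3 by -2.67 ± 0.30 (adjusted p = 2.47e-04). Against the change in ASTL61, that in OPCL61 differed for 12 of 24 genes, 11 of them more positive in OPCL61, where 35.4% of all genes passed. The count was 7 without ASTL61 array 1. Lamb1 differed by 4.56 ± 0.22, Itga3 by 4.33 ± 0.30 and Itgb8 by -4.86 ± 0.43.

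Between the lines themselves, NSCL61 and OPCL61 had fewer calls than NSC and OPC had, both among these genes and over all genes. OPCL61 differed from NSCL61 in 8 of 24 genes, 4 higher and 4 lower, where 26.7% of all genes passed, and the count ran from 4 without NSCL61 array 1 to 8 without OPCL61 array 1, with 5 without NSCL61 array 2 or OPCL61 array 2. Itga8 was higher in OPCL61 by 3.82 ± 0.35 and Itgb8 by 2.90 ± 0.31, while Itga4 was lower by -1.63 ± 0.24 and Nid2, at 5.96 and 6.24 against 8.27 and 8.08, by -2.07 ± 0.34. The share called between these lines, 33.3%, lay near the 26.7% of all genes. The parents OPC and NSC differed in 18 of the same 24, where 51.5% of all genes passed, and whether the counts differ was not tested.

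ASTL61 differed from NSCL61 in 11 of 24 genes, 2 higher and 9 lower, where 32.7% of all genes passed, and OPCL61 from ASTL61 in 14, 11 higher and 3 lower in OPCL61, where 36.6% passed (18.9% higher and 17.7% lower). Itga6 was lower in ASTL61 than in NSCL61 by -1.93 ± 0.19 and than in OPCL61, which exceeded it by 2.35 ± 0.19. Lama4 had 5.63 in both ASTL61 arrays, and the other lines exceeded that: NSCL61 by a difference of -2.73 ± 0.26 (ASTL61 minus NSCL61) and OPCL61 by 2.48 ± 0.26. Itgb8 was higher in ASTL61, with 8.93 and 8.69, than in NSCL61 by 4.39 ± 0.31. OPCL61 was below ASTL61 for Itgb8 by -1.49 ± 0.31, and also for Itgb5 by -2.14 ± 0.34.

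**Figure D5:**
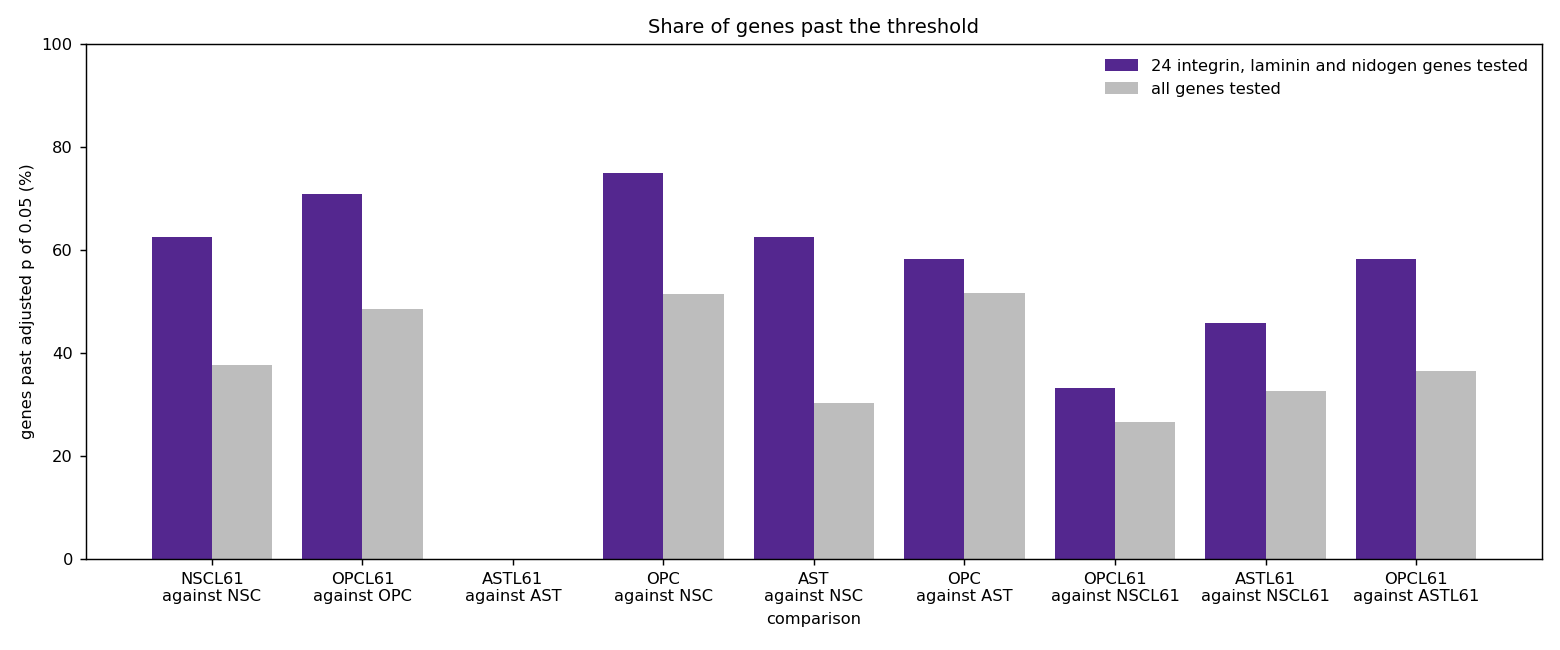
Percentage of genes past an adjusted p of 0.05 (vertical axis) in 9 comparisons of groups (horizontal axis), for the 24 integrin, laminin and nidogen genes tested and for all 12835 genes tested. The share of the 24 ran from 0% in ASTL61 against AST, where 0.0234% of all genes passed, to 75% in OPC against NSC, where 51.5% did.

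Partners of these receptors and chains moved as follows in lists chosen by function. Of all genes, 37.8% passed in NSCL61, 48.5% in OPCL61 and 0.0234% in ASTL61, and the shares of each list are set against those. Of 16 tested matrix ligands of integrins, 11 were lower and 1 higher in NSCL61 (75% called, median -2.27, all genes 0.04), 10 were higher and 0 lower in OPCL61 (62.5% called, median 1.27, all genes 0.05), and 0 passed in ASTL61 by limma. Col1a2 and Col1a1, the chains of collagen I, were far lower in NSCL61 than in NSC. Col1a2 went from 13.80 and 13.66 to 5.21 and 5.43, a fall of 8.41 ± 0.20. Col1a1 had 12.61 and 12.93 in NSC and 4.74 and 3.88 in NSCL61, which may be background, so no exact fold is given for it. Those collagens are also among the 10 pericyte and fibroblast markers whose group means lay above 5.18 in NSC. Thbs1, thrombospondin 1, rose by 6.44 ± 0.31 in OPCL61, and Tgfb1, the ligand whose latent form αv integrins bind, by 3.62 ± 0.39. The OPC levels of Thbs1 (4.11) and Tgfb1 (4.24) may be background.

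Of 13 tested basement membrane partners, 6 were lower and 2 higher in NSCL61 (61.5% called), 5 were higher and 2 lower in OPCL61 (53.8% called), and 0 passed in ASTL61. Col4a2 and Col4a1, the collagen IV chains of most basement membranes, rose in OPCL61 by 4.82 ± 0.21 and 4.40 ± 0.31. Col4a2 fell by 3.02 ± 0.21 in NSCL61. Group means of Col4a2 were 11.03 in NSC, 3.91 in OPC, 8.01 in NSCL61 and 8.72 in OPCL61, so OPC may be at background.

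The intracellular side was mixed. Of 36 tested adaptor and focal adhesion genes, 8 rose and 15 fell in NSCL61 (63.9% called), 14 rose and 9 fell in OPCL61 (63.9% called), and 0 passed in ASTL61. Paxillin (Pxn), a scaffold of focal adhesions, rose in NSCL61 by 1.75 ± 0.13 and in OPCL61 by 2.05 ± 0.13, and was at 0.40 ± 0.13 (adjusted p = 0.5) in ASTL61. Actn1, an actin cross-linker, rose in OPCL61 by 3.40 ± 0.22, while Lims2, a partner of integrin-linked kinase, fell there by 3.71 ± 0.21, to a mean of 5.12 that may be background. Of 15 tested laminin receptors other than integrins, 2 rose and 5 fell in NSCL61 (46.7% called), and 3 rose and 4 fell in OPCL61 (46.7% called), the latter near the share of all genes. Dag1, which encodes dystroglycan, fell by 0.94 ± 0.21 in NSCL61. Of the syndecans, Sdc4 rose by 3.15 ± 0.38 and Sdc3 fell by 3.04 ± 0.18 in OPCL61.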

How the data were processed

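The deposited table holds log2 signals of 45101 probe sets in 12 arrays, which the authors had already processed. How probes were corrected, summarised and scaled is not stated in the labels. Per the labels, biotin targets were made from total RNA by one-cycle in vitro transcription. Gene symbols came from an annotation of the array's probe sets, checked against RefSeq gene identifiers of GRCm38.p6, which changed 0 of them. Control probe sets and those without exactly 1 symbol were left out. A probe set was kept where a group mean exceeded the median of all values (5.18), and each gene was given by its kept probe set with the highest mean, leaving 12835 genes. A model of 6 group means over all 12 arrays was fitted with limma 3.58.1 under R 4.3.3 (6 residual degrees of freedom). Contrasts gave 12 comparisons, each adjusted over all genes by Benjamini-Hochberg at 0.05. The script was tested on simulated data. All 32 genes could be named, and up to 3 of each partner list per line and its parent, those past the threshold with the smallest p. The genes and lists were chosen with earlier results of these data known. Groups and replicate numbers came from the sample titles. Alternatives changed the filter, scaling, probe sets, block, prior, arrays and fold size.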

Additional observations from a re-analysis of the deposited data

Results flagged for a closer look

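For 19 of the 24 genes tested, the changes of 2 lines against their parents differed from each other in at least 1 of 3 direct tests at an adjusted p of 0.05, or 79.2% against 55.3% of all genes tested, and the pair with the smallest p is given for each. The change in OPCL61 minus that in NSCL61 was 7.23 for Itga8, 4.55 for Nid1, 2.87 for Lama2, 2.45 for Itga1, 2.37 for Itga5, 2.17 for Itgb3, 2.11 for Lama4, 1.75 for Lamb2, 1.47 for Lamc1, 0.99 for Itgb1 and 0.71 for Itgav. OPCL61 minus ASTL61 gave 4.56 for Lamb1, 4.33 for Itga3, 2.58 for Itga6, 0.77 for Itgb7 and -4.86 for Itgb8. ASTL61 minus NSCL61 gave -2.64 for Itga7, -1.73 for Itga4 and -1.20 for Lama5.

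Leaving out single arrays ended 3 of these 19 differences. That of Itgb1 had an adjusted p of 0.0747 without NSCL61 array 2, 0.0697 without OPC array 2 and 0.0518 without OPCL61 array 2. That of Itgb7 had an adjusted p of 0.0557 without AST array 2, 0.0561 without ASTL61 array 1, 0.0594 without OPC array 1 and 0.0538 without OPCL61 array 2. That of Lama5 had an adjusted p between 0.0722 and 0.0974 without AST array 2, ASTL61 array 2, NSC array 2 or either NSCL61 array.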

How the results depend on the processing

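Counts of the genes past the threshold stayed within 1.5 times the main count in the 12 comparisons under every alternative except the following. With a log2 fold change of at least 1 required, the count was 9 in OPC against AST and 5 in OPCL61 against NSCL61. Leaving out 1 array gave 11 to 13 in NSCL61 against NSC, 12 to 16 in OPCL61 against OPC, 0 in ASTL61 against AST, 17 to 18 in OPC against NSC, 9 to 11 in AST against NSC, 10 to 13 in OPC against AST, 4 to 8 in OPCL61 against NSCL61, 9 to 10 in ASTL61 against NSCL61 and 10 to 13 in OPCL61 against ASTL61. For the differences between changes it gave 13 to 17 for OPCL61 and NSCL61, 8 to 10 for ASTL61 and NSCL61, and 7 to 10 for OPCL61 and ASTL61. An arm left with 1 array was assumed to vary like the other groups. With the replicate number as a block the counts were 15 in NSCL61, 17 in OPCL61 and 0 in ASTL61, each against its parent. Same-numbered arrays showed little shared deviation. Of 15 pairs of groups, same-numbered deviations correlated above 0.1 in 2, and the 15 correlations ran from -0.196 to 0.105. Low correlations cannot show whether the arrays were paired. Fold changes of single genes in the 3 lines that passed in the main or the alternative fit reversed in 1 case. That was Itgav in NSCL61, at 0.033 with another of its probe sets. Changes of sign where neither fit passed were not counted. No scaling or filter moved the median of all genes by more than 0.05.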

Other observations

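Of 8 epithelial marker genes, 4 had group means above 5.18 in NSCL61 and 3 in AST. Epcam was above 5.18 in every group and lower in NSCL61 (mean 5.99) than in NSC (6.56). The list's mean level was 5.38 to 5.40 in the NSCL61 arrays and 4.42 to 4.66 in the arrays of the other 5 groups. The genes of the list that did not reach 5.18 in NSCL61 are not named here, so the list as a whole did not mark that line. Cdh1, which encodes E-cadherin, had 6.82 and 6.49 in NSCL61 and at most 3.37 in the other 10 arrays. Krt18, an epithelial keratin, had 6.56 and 6.61 in NSCL61 and at most 3.63 elsewhere. The epithelial laminin chains Lama3 and Lamb3 had NSCL61 means of 4.44 and 4.20, under 5.18.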
